A study of Mus musculus with 9 samples.

Results

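The antioxidant and glutathione genes described here are the 48 protein-coding genes, of 19335 rows in the deposited sheet, whose symbols name a glutathione S-transferase (Gsta, Gstk, Gstm, Gsto, Gstp, Gstt, Gstz or Mgst), a glutathione peroxidase (Gpx), a peroxiredoxin (Prdx), a superoxide dismutase (Sod), a thioredoxin (Txn) or a thioredoxin reductase (Txnrd), together with Nfe2l2, Keap1, Cat, Nqo1, Hmox1, Gclc, Gclm, Gsr, Gss, Srxn1, Mt1 and Mt2. They were chosen by symbol and not by any measured value. Their messenger RNA was counted in muscle of wild-type C57BL/6J mice, a common inbred strain, in 9 libraries. The carnitine group (3 libraries) ate feed in which fat supplied 60% of the energy and drank water with L-carnitine at 100 mg/kg/day, the high-fat diet group (3 libraries) had that diet alone, and the control group (3 libraries) ate feed in which fat supplied 10%. All mice were 9 weeks old at assignment, had 2 weeks to acclimatise and 8 weeks on the diets, and went without food for 6 h before muscle was taken. The labels name neither the muscle nor the animals behind each library, so p-values here measure the spread between these libraries, which may be technical.

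Cells remove superoxide in steps. Superoxide dismutases turn it into hydrogen peroxide, and catalase, glutathione peroxidases and peroxiredoxins turn the peroxide into water. Peroxidases are recharged by glutathione or by thioredoxin, both kept reduced by NADPH-dependent reductases, and several of the genes are induced by the transcription factor NRF2, which the adaptor KEAP1 holds back until oxidants or electrophiles modify it. In skeletal muscle these systems face superoxide released by the respiratory chain and by NADPH oxidases.

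Strand bears on what each row measured. In the sheet, rows whose exons overlap those of a gene on the opposite strand held 84.5% of all counts, against 12.1% on rows with no opposite gene, although the library kit marks strand. Among the rows with the most counts, A930016O22Rik, a non-coding row opposite the muscle creatine kinase gene Ckm, held 13.1% of all counts, and Ckm itself held 4.00% as many as it. Ube2c, of the cell cycle, lies opposite Tnnc2, a troponin gene of fast fibres, and held 9.47% of all counts, and Tnnc2 held 1.82% as many. Of the 48 genes, 35 had no opposite gene, 9 shared exon sequence with one and 4 overlapped one without shared exons. The sources used here do not give the strand setting of the counting, so reads of a gene and of its opposite partner cannot be told apart. Had reads been counted against the library's strand, a row that shares exons would hold reads of its partner, and a row with no opposite gene would hold only the few reads on the unintended strand. Whether they were was not tested, and each level and difference given for a gene is that of its row in the sheet. Carnitine 2 and 3 and control 2 had the lowest shares of counts on rows with no opposite gene (8.65%, 9.32% and 9.55%), and the other 6 libraries had 11.8% to 14.5%.

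None of the genes passed the test in any comparison. Of the 48, 29 had enough counts to be tested with edgeR's quasi-likelihood test over 7523 rows, and 0 of 29 had an adjusted p below 0.05 in each of the comparisons of carnitine with the high-fat diet, of the high-fat diet with control and of carnitine with control. Over all rows tested the shares called were 0.0532%, 0.0532% and 0.425% in those 3 comparisons. At an unadjusted p below 0.05, 1 gene was higher and 7 were lower with carnitine than on the high-fat diet, where 5.44% and 6.58% of all rows tested were. Of the 18 tested genes with no opposite gene 0 and 6 were, where 1.4% and 10.8% of all tested rows in that class were. For the high-fat diet against control 4 of the 29 were higher and 1 was lower (2.69% and 3.63% of all rows), and for carnitine against control 1 was higher and 4 were lower (4.33% and 6.03% of all rows). In that class they were 4 and 0 (3.1% and 2.25% of its rows) and 1 and 4 (2.7% and 8.97%). Gsr and Gstt2, among the 4 higher, and Gstt2, the 1 higher with carnitine, reached the low-count filter's level in 0 control libraries. Gpx1, among the 4 lower with carnitine, reached it in 0 carnitine libraries. These genes were tested only through groups where they are high, so their part in the counts supports nothing. Limma-voom also called 0 in each comparison, and DESeq2 called Gss, glutathione synthetase, between carnitine and the high-fat diet (adjusted p = 0.0294) and 0 in the other comparisons. The differences given for single genes are therefore ones that did not pass edgeR's test.

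Precision limited what could be seen. Libraries held 2315985 to 3773649 counts, of which the 48 genes took 1191 to 2934, or 0.0489% to 0.0777%. One count was worth 0.232 to 0.489 CPM (counts scaled to a library's normalised total), and a gene listed with 0 counts could have had up to 3 (0.696 to 1.47 CPM), a limit that covers counting error only. The standard errors of the log2 fold changes between carnitine and the high-fat diet ran from 0.24 to 1.00, with a median of 0.47.

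Summed over the 35 genes with no opposite gene, the level of the antioxidant genes was lowest in 2 of the carnitine libraries. It was 213.9, 158.5 and 167.3 CPM in the carnitine libraries, 214.2, 333.2 and 266.3 CPM in the high-fat diet libraries and 212.1, 222.7 and 265.4 CPM in the control libraries. High-fat diet 2 had the highest sum, and carnitine 2 and 3 the lowest. As a share of the counts on all rows with no opposite gene, the genes took 0.170%, 0.165% and 0.161% with carnitine, 0.189%, 0.291% and 0.197% on the high-fat diet alone and 0.144%, 0.206% and 0.207% on the control diet. On this measure the 3 carnitine libraries lay below the 3 high-fat diet libraries, while control 1 lay below both. In CPM, carnitine 1 and high-fat diet 1 (213.9 and 214.2) differed by less than 1 count was worth there (0.379 and 0.355 CPM). In bulk tissue, fewer cells of a type and less RNA per cell cannot be told apart.

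**Figure D1:**
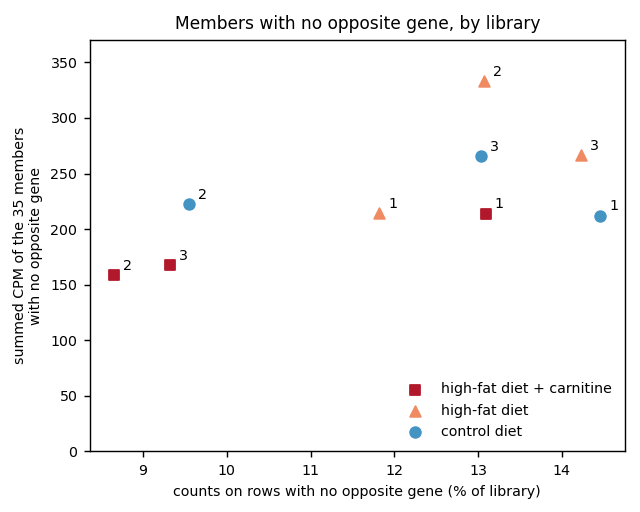
Summed CPM of the 35 genes with no opposite gene (y axis) against the percentage of each library's counts on rows with no opposite gene (x axis), 1 point a library, numbered by replicate. Carnitine 2 and 3 lie lowest on the y axis at 158.5 and 167.3 CPM, and high-fat diet 2 highest at 333.2 CPM.

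Between carnitine and the high-fat diet, most of the tested genes lay lower with carnitine. Of 29, 22 had a log2 fold change below 0, where 50.6% of all rows tested did, and their median was −0.64 against −0.01 over all rows. Rows with no opposite gene were themselves lower in this comparison, with a median of −0.32 and 69.9% below 0. Of the 18 tested genes in that class 15 were below 0, with a median of −0.69. The 8 tested genes with exon overlap had a median of −0.09, where all such rows had 0.18. In 5 of 29 genes every carnitine library was below every high-fat diet library (Nfe2l2, Cat, Keap1, Mgst3 and Prdx3). In 1, Gss, every carnitine library was above. Of all rows tested 9.82% and 10.2% separated in those directions. The gap for Mgst3 was smaller than 1 count was worth. Of the 18 tested genes with no opposite gene 4 and 0 did, where 15.6% and 2.77% of all tested rows in that class did. Scaled on rows with no opposite gene alone, the median of the 29 genes was −0.23, with 14 of the 18 genes with no opposite gene below 0, while the median of all rows moved to 0.35. Scaled on library totals alone it was −0.85, and that of all rows −0.20. Leaving out the 3 libraries with the lowest share leaves carnitine 1 alone in its group and assumes that it varies like the others. The median was then −0.38 over the 36 genes that passed the filter, and that of rows with no opposite gene −0.11.

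Between the high-fat diet and control, 21 of 29 genes had a log2 fold change above 0, where 50.6% of all rows did, and their median was 0.34 against 0.00 over all rows and 0.12 over rows with no opposite gene. In 6 of 29 genes every high-fat diet library was above every control library (Cat, Srxn1, Txnrd1, Gsr, Gclc and Gstt2), where 7.23% of all rows separated so. The gap for Gclc was smaller than 1 count was worth in control 2. Of the 18 tested genes with no opposite gene 5 did, where 8.64% of all tested rows in that class did. Gsr and Gstt2 reached the level of the low-count filter (3.85 CPM) in 0 control libraries and so passed it only through the high-fat groups, where they are high, and their separation from control supports nothing. In 1 gene, Gss, every high-fat diet library was below every control library, where 6.86% of all rows did so. This comparison and the preceding one share the high-fat diet libraries, so a high or low value there enters both with opposite sign. Without high-fat diet 2, the library with the most counts, the median of the genes with no opposite gene was 0.08 over 19 genes. It was 0.35 over 18 genes with that library. Between carnitine and control, 19 of 29 genes had a log2 fold change below 0, where 50.3% of all rows did, with a median of −0.25 against 0.00 over all rows and −0.20 over rows with no opposite gene. In 2 of 29 genes every carnitine library was above every control library (Gsr and Gstt2), and in 7 every carnitine library was below (Gpx4, Mgst3, Prdx3, Gstm5, Prdx1, Gpx1 and Sod2), where 6.45% and 7.18% of all rows tested separated so. Of the 18 tested genes with no opposite gene 2 and 6 did, where 3.43% and 10.3% of all tested rows in that class did. Both genes that were above passed the filter only through the high-fat groups, as given for them against control. Gpx1, among the 7, reached the filter's level in 0 carnitine libraries and so passed it only through the other groups, and its separation from control supports nothing. Over all 29 genes, 15 reached that level in every library, and counts and medians over the 29 describe the genes that passed, not all 48. Of the 29, 3 (Gsto1, Gsr and Gstt2) reached it in 0 control libraries and 2 (Gpx1 and Gpx7) in 0 carnitine libraries. Their part in the counts of genes above or below 0 against those groups supports nothing. The median was −0.07 when scaled on rows with no opposite gene, −0.52 without carnitine 1, −0.17 without carnitine 2 and −0.07 without carnitine 3. The filter was run anew without a library, so the last 3 medians are over 31, 33 and 33 genes.

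**Figure D2:**
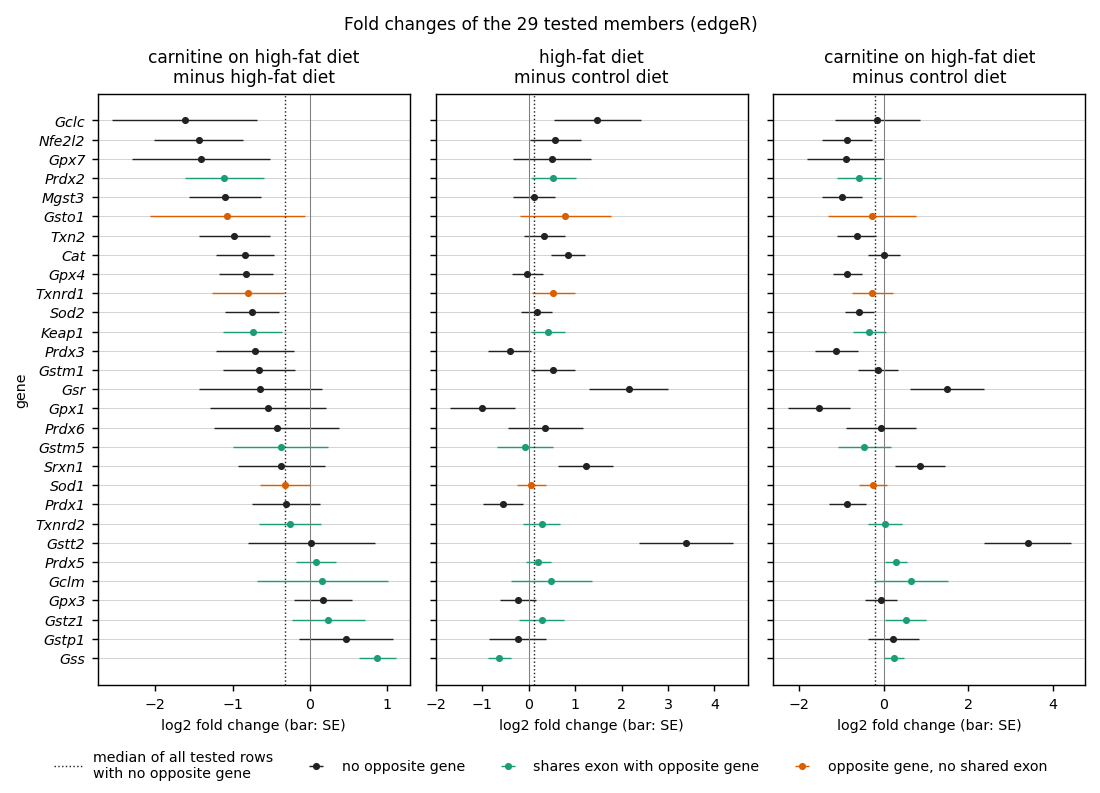
Log2 fold changes with their SE (x axes) of the 29 tested genes (y axis) in the 3 comparisons, coloured by whether the gene has an opposite gene, with a dotted line at the median of all tested rows with no opposite gene. In the left panel 22 of 29 genes lie below 0, in the middle panel 21 of 29 lie above 0, and none passed the test.

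By level per length, Prdx5 led the tested genes with a mean deposited FPKM (counts scaled by gene length and library size) of 38.3 over the 9 libraries. Gss followed with 28.95, Gpx4 with 16.8, Gpx3 with 13.2, Mgst3 with 11.6, Gstm1 with 9.85, Sod1 with 8.08 and Cat with 8.01. The NRF2 gene Nfe2l2 was at 1.86 and Gclm, the lowest of the tested genes, at 0.544. This order is one of rows: Prdx5 and Gss both share exon sequence with an opposite gene, and the row opposite Prdx5, Trmt112, was at 260.5, that opposite Keap1, Gm16754, at 160.0, and that opposite Gss, Acss2, at 1.58. Among genes with no opposite gene, those of the peroxidases Gpx4 and Gpx3 had the highest levels per length, with 10.2 ± 1.07 FPKM with carnitine, 20.99 ± 7.60 FPKM on the high-fat diet alone and 19.1 ± 7.19 FPKM on the control diet for Gpx4 (SD, n = 3 each).

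**Figure D3:**
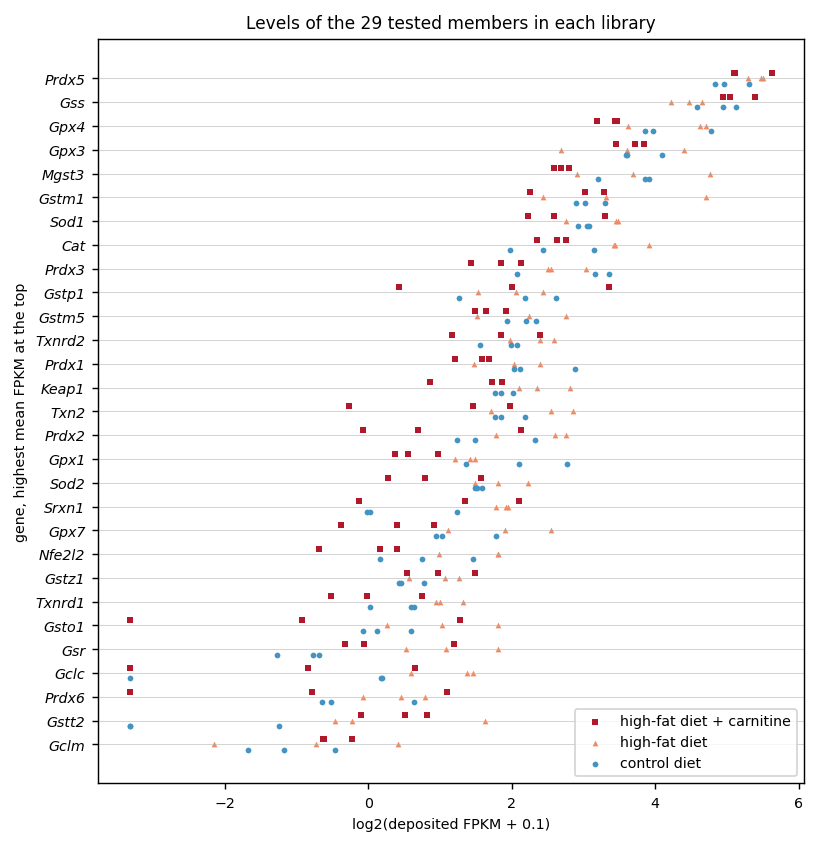
Deposited FPKM of the 29 tested genes as log2(FPKM + 0.1) on the x axis, 1 point for each of the 9 libraries, with genes on the y axis in order of their mean. Prdx5 and Gss lie highest with mean FPKM of 38.3 and 28.95, and points at the left edge are libraries with 0 counts.

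The bases before the start of 4 genes are shown because NRF2 and metals act through short elements there, and because Srxn1 and Cat separated the high-fat diet from control without overlap, Nfe2l2 is the regulator and Mt2 has an abundant opposite row. Each is the 250 bases upstream of the start in RefSeq's GRCm38.p6 assembly, 5′ to 3′ on the gene's strand. Capitals mark TGACNNNGC or TGAGNNNGC on either strand, 2 spellings of the antioxidant response element, in Srxn1, Nfe2l2 and Cat. In Mt2 they mark TGCGCNC or TGCACNC, 2 spellings of the metal response element. No motif overlapped another in these 4.
Srxn1 (chr2:152105274-152105523, plus strand): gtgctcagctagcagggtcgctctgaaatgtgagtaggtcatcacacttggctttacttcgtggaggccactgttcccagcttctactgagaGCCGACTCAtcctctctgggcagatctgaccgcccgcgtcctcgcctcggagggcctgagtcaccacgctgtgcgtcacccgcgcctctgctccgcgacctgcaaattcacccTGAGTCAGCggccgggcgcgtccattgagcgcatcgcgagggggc
Nfe2l2 (chr2:75704664-75704913, minus strand): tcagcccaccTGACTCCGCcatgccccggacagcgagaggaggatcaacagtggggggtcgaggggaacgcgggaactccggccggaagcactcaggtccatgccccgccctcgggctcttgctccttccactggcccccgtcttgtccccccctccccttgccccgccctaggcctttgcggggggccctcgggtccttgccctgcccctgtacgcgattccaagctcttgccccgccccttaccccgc
Cat (chr2:103485154-103485403, minus strand): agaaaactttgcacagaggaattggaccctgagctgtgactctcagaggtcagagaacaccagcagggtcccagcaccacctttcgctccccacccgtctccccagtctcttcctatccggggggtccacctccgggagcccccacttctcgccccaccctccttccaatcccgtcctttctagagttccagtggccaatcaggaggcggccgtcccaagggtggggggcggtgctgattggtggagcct
Mt2 (chr8:94172368-94172617, plus strand): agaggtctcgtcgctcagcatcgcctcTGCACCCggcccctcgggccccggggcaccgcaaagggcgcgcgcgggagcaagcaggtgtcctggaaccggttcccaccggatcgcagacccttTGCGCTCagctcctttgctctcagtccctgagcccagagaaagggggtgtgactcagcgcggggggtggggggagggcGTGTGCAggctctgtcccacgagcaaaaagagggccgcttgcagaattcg

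Srxn1 held 2 matches to the antioxidant response element, starting 158 and 45 bases before the start, Nfe2l2 held 1 and Cat none. Mt2 held 3 matches to the metal response element, a number reached by 1.26% of all 32851 promoters in the table. Of the 48 genes 41 had a promoter there, with 52 promoters in all. An antioxidant response element spelling was in 18 of these 52 (34.6%) and in 23.0% of all promoters. The metal response element spelling was in 15 of 52 (28.8%) and in 21.4% of all promoters. A match describes letters only. Gclc, Gsr, Gsta4, Gstt2, Hmox1, Prdx6 and Sod3 had no entry.

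Among the regulators, Nfe2l2 (chromosome 2, 75505857 to 75534985, minus strand, coordinates of the sheet, GRCm39) had the lower values with carnitine. It had 1.90, 5.14 and 4.33 CPM in the carnitine libraries, 12.4, 6.27 and 12.3 CPM in the high-fat diet libraries and 10.2, 4.41 and 5.92 CPM in the control libraries. All 3 carnitine libraries were below all 3 high-fat diet libraries, while the control libraries overlapped both groups. The log2 fold change was −1.44 (SE 0.58, adjusted p = 0.325) for carnitine against the high-fat diet and 0.57 (SE 0.55, adjusted p = 0.942) for the high-fat diet against control, on 5 to 35 counts a library. Under the alternative settings the first ranged from −2.47 to −1.04, with adjusted p from 0.157 to 0.831.

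Keap1, whose product marks NRF2 for degradation, had 15.9, 8.99 and 16.8 CPM in the carnitine libraries, 18.8, 28.5 and 22.3 CPM in the high-fat diet libraries and 18.98, 17.6 and 16.1 CPM in the control libraries. For carnitine against the high-fat diet it was at a log2 ratio of −0.74 (SE 0.38, adjusted p = 0.444), with every carnitine library below every high-fat diet library. The row of the non-coding gene Gm16754 (chromosome 9, 21136667 to 21144342, plus strand) overlaps 3317 bp of it and shares 510 bp of exon in the GENCODE M21 annotation. Gm16754 held 10205 counts over the 9 libraries against 471 for Keap1. It had 297, 558 and 528 CPM with carnitine, 483, 337 and 445 CPM on the high-fat diet alone and 383, 439 and 348 CPM on the control diet. These values overlapped between the groups, with a log2 ratio of 0.13 (SE 0.25, adjusted p = 0.877) for carnitine against the high-fat diet. Keap1 held 5.36%, 1.61% and 3.19% as many counts as Gm16754 with carnitine, 3.89%, 8.47% and 5.00% on the high-fat diet alone and 4.95%, 4.01% and 4.63% on the control diet. The lowest ratio was in carnitine 2, the library with the lowest share of counts on rows with no opposite gene, and the highest in high-fat diet 2. The part of reads shared between these rows was not tested.

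Superoxide dismutases and catalase had enough counts for comparison except Sod3, the extracellular form, with 20 counts in all. Sod1, the cytosolic copper and zinc enzyme, had 37.2, 26.1 and 20.2 CPM in the carnitine libraries, 25.2, 38.3 and 40.9 CPM in the high-fat diet libraries and 33.2, 37.7 and 29.3 CPM in the control libraries. The groups overlapped, and the log2 fold change was −0.32 (SE 0.32) for carnitine against the high-fat diet and 0.06 (SE 0.32) for the high-fat diet against control. Scaf4, a gene on the other strand whose span overlaps Sod1 without shared exons, held 398 counts and was at 0.13 (SE 0.39) for carnitine against the high-fat diet. Sod2, the mitochondrial manganese enzyme, had 27.7, 12.4 and 18.3 CPM with carnitine, 25.9, 40.1 and 32.3 CPM on the high-fat diet alone and 28.1, 30.8 and 28.6 CPM on the control diet. Its carnitine libraries lay below every control library and overlapped the high-fat diet, with log2 fold changes of −0.75 (SE 0.35, adjusted p = 0.385) against the high-fat diet and −0.58 (SE 0.35, adjusted p = 0.6) against control.

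Cat encodes catalase, the peroxisomal enzyme that breaks down hydrogen peroxide. It had 16.7, 14.6 and 17.8 CPM in the carnitine libraries, 26.9, 34.4 and 26.4 CPM in the high-fat diet libraries and 23.4, 15.7 and 9.86 CPM in the control libraries. The high-fat diet libraries were above every library of both other groups, which averaged 16.3 ± 1.64 CPM with carnitine and 16.3 ± 6.77 CPM on the control diet (SD, n = 3 each). On the log2 scale the fold change was −0.84 (SE 0.37, adjusted p = 0.372) for carnitine against the high-fat diet, 0.85 (SE 0.37, adjusted p = 0.691) for the high-fat diet against control and 0.01 (SE 0.38) for carnitine against control. Over the alternatives tried the high-fat diet value ranged from 0.57 to 1.24 (adjusted p from 0.425 to 1).

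Glutathione peroxidases use glutathione to reduce peroxides. Gpx4, which reduces lipid peroxides in membranes, had 18.2, 20.6 and 17.3 CPM in the carnitine libraries, 20.2, 37.1 and 42.7 CPM in the high-fat diet libraries and 25.2, 30.3 and 46.4 CPM in the control libraries. All carnitine libraries lay below all control libraries, and high-fat diet 1 lay among the carnitine libraries. Its log2 fold changes were −0.83 (SE 0.35, adjusted p = 0.345) for carnitine against the high-fat diet and −0.86 (SE 0.35, adjusted p = 0.369) for carnitine against control.

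Gpx1, the cytosolic peroxidase, had 1.90, 3.00 and 1.92 CPM with carnitine, 3.55, 2.79 and 3.71 CPM on the high-fat diet alone and 3.65, 6.85 and 9.54 CPM on the control diet, on 4 to 29 counts a library. Every carnitine library was below every control library (log2 fold change −1.54, SE 0.74, adjusted p = 0.473), while carnitine and high-fat diet overlapped (log2 fold change −0.54, SE 0.75). Gpx1 reached the filter's level in 0 carnitine, 1 high-fat diet and 2 control libraries. It was thus tested only through groups where it is high, and the separation of carnitine from control supports nothing. Gpx3, the secreted form, had 18.96, 28.7 and 26.4 CPM with carnitine, 10.99, 33.4 and 20.8 CPM on the high-fat diet alone and 22.3, 24.5 and 30.2 CPM on the control diet. These groups overlapped throughout, with log2 fold changes of 0.17 (SE 0.38), −0.23 (SE 0.38) and −0.06 (SE 0.38) for carnitine against the high-fat diet, the high-fat diet against control and carnitine against control. Gpx7, a peroxidase of the endoplasmic reticulum, was at −1.41 (SE 0.89) for carnitine against the high-fat diet on 78 counts in all. It reached the filter's level in 0 carnitine, 2 high-fat diet and 1 control libraries. Gpx7 too was thus tested only through groups where it is high, and its difference supports nothing. Gpx8 had 1 count.

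**Figure D4:**
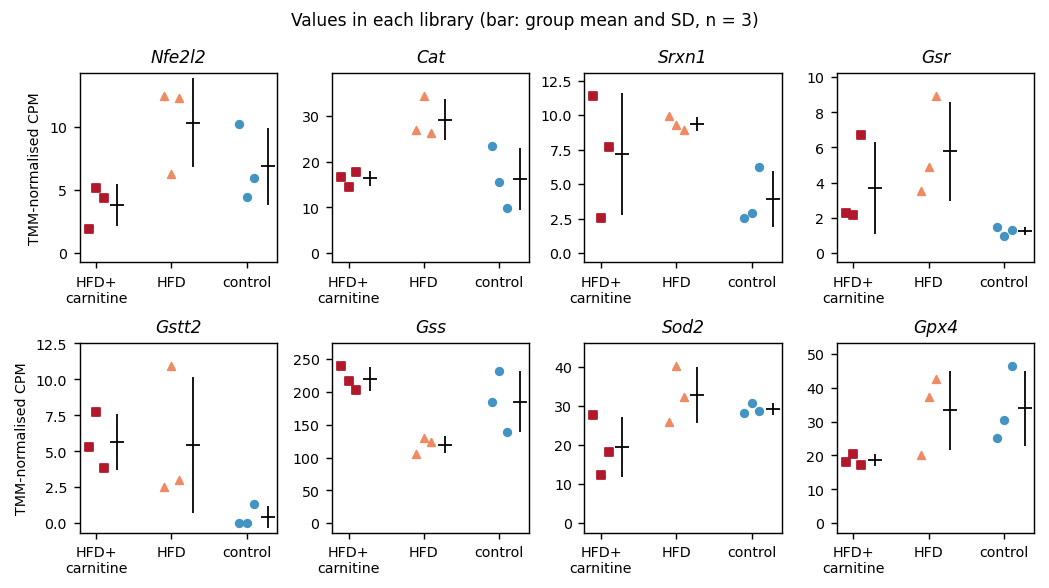
TMM-normalised CPM (y axes) of 8 genes in each library, with carnitine on the high-fat diet at the left, the high-fat diet in the middle and control at the right (x axes), and group mean with SD beside the points (n = 3). All 3 high-fat diet libraries lie above the control libraries for Cat, Srxn1, Gsr and Gstt2, and below both other groups for Gss. Gsr and Gstt2 passed the low-count filter only through the high-fat groups, so their separation from control supports nothing.

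Most peroxiredoxins reduce peroxides with thioredoxin. Prdx3, the mitochondrial member, had 6.07, 4.28 and 5.77 CPM in the carnitine libraries, 8.16, 10.4 and 7.80 CPM in the high-fat diet libraries and 15.3, 6.85 and 12.8 CPM in the control libraries. The carnitine libraries lay below every other library, with log2 fold changes of −0.71 (SE 0.50, adjusted p = 0.59) against the high-fat diet and −1.12 (SE 0.50, adjusted p = 0.43) against control. Prdx1, a cytosolic member, was at 8.96 ± 2.21 CPM with carnitine, 11.00 ± 2.98 CPM on the high-fat diet alone and 16.2 ± 4.79 CPM on the control diet (SD, n = 3 each), with all carnitine libraries below all control libraries (log2 fold change −0.86, SE 0.44, adjusted p = 0.513). Prdx6 was at −0.43 (SE 0.81) for carnitine against the high-fat diet, with 0 to 25 counts a library, and Prdx4 had 8 counts, all in control 3.

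Prdx2, another cytosolic peroxiredoxin, had 12.5, 5.14 and 2.88 CPM with carnitine, 19.5, 16.01 and 9.66 CPM on the high-fat diet alone and 8.40, 7.83 and 14.8 CPM on the control diet. The groups overlapped, and the log2 fold change was −1.11 (SE 0.51, adjusted p = 0.385) for carnitine against the high-fat diet. Its ends lie opposite Junb, a transcription factor gene (173 bp of shared exon), and Rnaseh2a, a ribonuclease subunit gene (177 bp). Rnaseh2a held 4701 counts against 285 for Prdx2 and was at 0.24 (SE 0.24) in that comparison, and Junb at 0.32 (SE 0.36).

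Prdx5, found in mitochondria, peroxisomes and cytosol, had 70.9, 80.9 and 117 CPM in the carnitine libraries, 92.2, 73.1 and 89.9 CPM in the high-fat diet libraries and 85.8, 74.9 and 59.8 CPM in the control libraries. The groups overlapped, with log2 fold changes of 0.08 (SE 0.26) for carnitine against the high-fat diet and 0.21 (SE 0.26) for the high-fat diet against control. With an SE of 0.26, Prdx5 and Gss (0.24) were the most precisely measured of the genes. Prdx5 shares 409 bp of exon with Trmt112, a methyltransferase cofactor gene, whose row held 7899 counts against 2007. Trmt112 was at 0.21 (SE 0.24) and −0.04 (SE 0.24) in the same comparisons.

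In the thioredoxin system, Txn2, the mitochondrial thioredoxin, had 15.6, 3.43 and 12.5 CPM in the carnitine libraries, 28.7, 21.1 and 12.6 CPM in the high-fat diet libraries and 14.2, 16.6 and 18.4 CPM in the control libraries. Carnitine 2 was the lowest library, and the log2 fold change for carnitine against the high-fat diet was −0.98 (SE 0.46, adjusted p = 0.39). Txn1, the cytosolic thioredoxin, had 62 counts and fell below the filter, with 30 of them in high-fat diet 2. The cytosolic reductase Txnrd1 had 6.07, 4.71 and 12.5 CPM with carnitine, 16.3, 11.8 and 12.3 CPM on the high-fat diet alone and 10.2, 7.34 and 10.2 CPM on the control diet. All high-fat diet libraries were above all control libraries (log2 fold change 0.53, SE 0.46, adjusted p = 0.932), and carnitine 3 lay within the high-fat diet range (log2 fold change −0.80, SE 0.47). Txnrd2, the mitochondrial reductase, was at −0.26 (SE 0.40) for carnitine against the high-fat diet, and Txnrd3 had 33 counts.

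Srxn1 encodes sulfiredoxin, which restores overoxidised peroxiredoxins, and is a known NRF2 target. It had 11.4, 2.57 and 7.69 CPM in the carnitine libraries, 9.93, 9.28 and 8.91 CPM in the high-fat diet libraries and 2.56, 2.94 and 6.25 CPM in the control libraries. The high-fat diet libraries lay close together and above every control library, whereas the carnitine libraries spanned both groups. Its log2 fold changes were 1.23 (SE 0.59, adjusted p = 0.773) for the high-fat diet against control and −0.37 (SE 0.56) for carnitine against the high-fat diet, the second turning to 0.21 without the 3 libraries with the lowest share on rows with no opposite gene.

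Glutathione is made in steps by glutamate-cysteine ligase, of which Gclc is the catalytic and Gclm the modifier subunit, and by glutathione synthetase, Gss. Gclc had 5.31, 0 and 1.92 CPM in the carnitine libraries, 9.57, 4.64 and 8.91 CPM in the high-fat diet libraries and 4.01, 4.41 and 0 CPM in the control libraries, on 0 to 27 counts a library. All high-fat diet libraries lay above all control libraries, and carnitine overlapped both. High-fat diet 2 and control 2 (4.64 and 4.41 CPM) differed by less than 1 count was worth in control 2 (0.489 CPM). It was at a log2 ratio of 1.48 (SE 0.93, adjusted p = 0.89) for the high-fat diet against control and −1.62 (SE 0.94, adjusted p = 0.496) for carnitine against the high-fat diet. Gclm had 4.55, 3.85 and 3.85 CPM with carnitine, 7.45, 2.79 and 0.743 CPM on the high-fat diet alone and 4.01, 2.45 and 1.31 CPM on the control diet, and the groups overlapped, at a log2 fold change of 0.16 (SE 0.85) for carnitine against the high-fat diet and 0.49 (SE 0.87) for the high-fat diet against control. Gm17494, a non-coding row opposite Gclm that shares 296 bp of exon, held 71 counts against 84.

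Gsr, glutathione reductase, had 2.27, 2.14 and 6.73 CPM in the carnitine libraries, 3.55, 4.87 and 8.91 CPM in the high-fat diet libraries and 1.46, 0.979 and 1.31 CPM in the control libraries, on 2 to 24 counts a library. Every library of both high-fat groups was above every control library. Gsr reached the filter's level in 0 control libraries and so was tested only through the high-fat groups, and its separation from control supports nothing. Differences on the log2 scale were 2.15 (SE 0.86, adjusted p = 0.597) for the high-fat diet against control and 1.50 (SE 0.88, adjusted p = 0.581) for carnitine against control, with carnitine and the high-fat diet overlapping (log2 fold change −0.64, SE 0.79). With other settings the first ranged from 1.70 to 2.39 (adjusted p from 0.367 to 1).

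Gss (chromosome 2, 155405101 to 155434730, minus strand) had the smallest adjusted p of the genes between carnitine and the high-fat diet, and it was higher with carnitine. It had 239, 217 and 202 CPM in the carnitine libraries, 105, 130.0 and 124 CPM in the high-fat diet libraries and 184, 232 and 139 CPM in the control libraries. The high-fat diet libraries were below every library of both other groups, and carnitine and control overlapped. The log2 fold change was 0.87 (SE 0.24, adjusted p = 0.199) for carnitine against the high-fat diet by edgeR, −0.63 (SE 0.24, adjusted p = 0.531) for the high-fat diet against control and 0.25 (SE 0.24) for carnitine against control. DESeq2 called the first of these (adjusted p = 0.0294), and over the other alternatives it ranged from 0.68 to 1.24 without passing. The Gss row overlaps 22544 bp of Acss2, the gene of an acetyl-CoA synthetase, on the other strand and shares 395 bp of exon with it. Acss2 held 397 counts against 4152 for Gss, the reverse of the ratio seen for Keap1, Prdx2 and Prdx5. It had 12.9, 12.8 and 17.8 CPM with carnitine, 24.1, 16.5 and 10.4 CPM on the high-fat diet alone and 12.1, 24.5 and 15.1 CPM on the control diet. These values overlapped between the groups, at −0.23 (SE 0.42) for carnitine against the high-fat diet. As for every row that shares exons, reads of Gss and of Acss2 cannot be told apart, and the part shared was not tested.

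Glutathione S-transferases attach glutathione to electrophiles. Mgst3, a microsomal member, had 7.21, 7.71 and 7.21 CPM in the carnitine libraries, 7.80, 25.99 and 13.4 CPM in the high-fat diet libraries and 10.2, 18.6 and 15.4 CPM in the control libraries. The carnitine libraries were closely spaced and below every other library, and high-fat diet 2 was the highest. Carnitine 2 and high-fat diet 1 (7.71 and 7.80 CPM) differed by less than 1 count was worth there (0.428 and 0.355 CPM). Log2 fold changes were −1.10 (SE 0.47, adjusted p = 0.348) for carnitine against the high-fat diet and −0.99 (SE 0.48, adjusted p = 0.473) for carnitine against control. Gstm1, a cytosolic mu-class enzyme, had 11.4, 15.8 and 7.69 CPM with carnitine, 7.45, 33.6 and 13.7 CPM on the high-fat diet alone and 12.1, 12.2 and 14.1 CPM on the control diet. High-fat diet 2 stood above the other libraries and the groups overlapped. The log2 ratio of carnitine to the high-fat diet was −0.66 (SE 0.47), and 0.14 without high-fat diet 2.

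Gstt2, a theta-class transferase, was close to absent from the control libraries. It had 14, 18 and 8 counts with carnitine, 7, 47 and 8 counts on the high-fat diet alone and 0, 0 and 4 counts on the control diet, or 5.31, 7.71 and 3.85 CPM in the carnitine libraries, 2.48, 10.9 and 2.97 CPM in the high-fat diet libraries and 0, 0 and 1.31 CPM in the control libraries. Every library of both high-fat groups lay above every control library, and most of the high-fat diet counts came from high-fat diet 2. Gstt2 reached the filter's level in 0 control libraries and so was tested only through the high-fat groups, and its separation from control supports nothing. The log2 fold change was 3.39 (SE 1.02, adjusted p = 0.253) for the high-fat diet against control, 3.41 (SE 1.03, adjusted p = 0.192) for carnitine against control and 0.02 (SE 0.82) for carnitine against the high-fat diet. Without control 3, the only control library with counts, the high-fat diet value was 6.92, and leaving out high-fat diet 2 gave 2.38. Over these and the other settings, the carnitine value against control ranged from 2.82 to 6.95, and its adjusted p from 0.0939 to 0.453.

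The other tested transferases were Gstp1, Gstz1, Gstm5 and Gsto1. For carnitine against the high-fat diet, Gstp1 was at 0.47 (SE 0.61), with carnitine 1 highest at 15.2 CPM and carnitine 2 lowest at 2.14 CPM. Gstz1, an enzyme of tyrosine breakdown that shares 465 bp of exon with Pomt2, was at 0.24 (SE 0.47), and Gsto1, within the span of Cfap43 on the other strand, at −1.07 (SE 1.00). Gstm5 was at −0.38 (SE 0.61) with 133 counts, whereas 4933431E20Rik, a non-coding row opposite it that shares 178 bp of exon, held 4110 counts and was at 0.06 (SE 0.24). Transferases below the filter were Gstm2 (84 counts), Gstk1 (62), Mgst1 (39), Gstp2 (37), Gsta4 (25), Gstm4 (18), Gstt1 (8), Gstp3 (2), Gstm7 (1) and Gstt3 (1).

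Metallothioneins bind zinc and copper and are induced by metals and by glucocorticoids. Their own rows fell below the low-count filter. Mt2 had 0, 4 and 6 counts with carnitine, 4, 15 and 18 counts on the high-fat diet alone and 8, 6 and 0 counts on the control diet, and Mt1 had 6, 1 and 1 counts with carnitine, 6, 10 and 4 counts on the high-fat diet alone and 6, 10 and 6 counts on the control diet. Mt2 (chromosome 8, 94899292 to 94900196, plus strand) shares 432 bp of exon with the non-coding gene Gm45774 (chromosome 8, 94897376 to 94900040, minus strand), whose row held 2775 counts against 61. Gm45774 had 70.5, 43.7 and 114 CPM in the carnitine libraries, 105, 88.2 and 78.7 CPM in the high-fat diet libraries and 43.8, 494 and 76.9 CPM in the control libraries. Control 2 stood far above the other 8 libraries, which lay between 43.7 and 114 CPM. The log2 fold change of Gm45774 was −1.17 (SE 0.92, adjusted p = 0.924) for the high-fat diet against control, and without control 2 it turned to 0.60 (SE 0.35, adjusted p = 0.999). Mt2 held 0.594% as many counts as Gm45774 in control 2, and 0% to 8.49% in the other libraries.

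**Figure D5:**
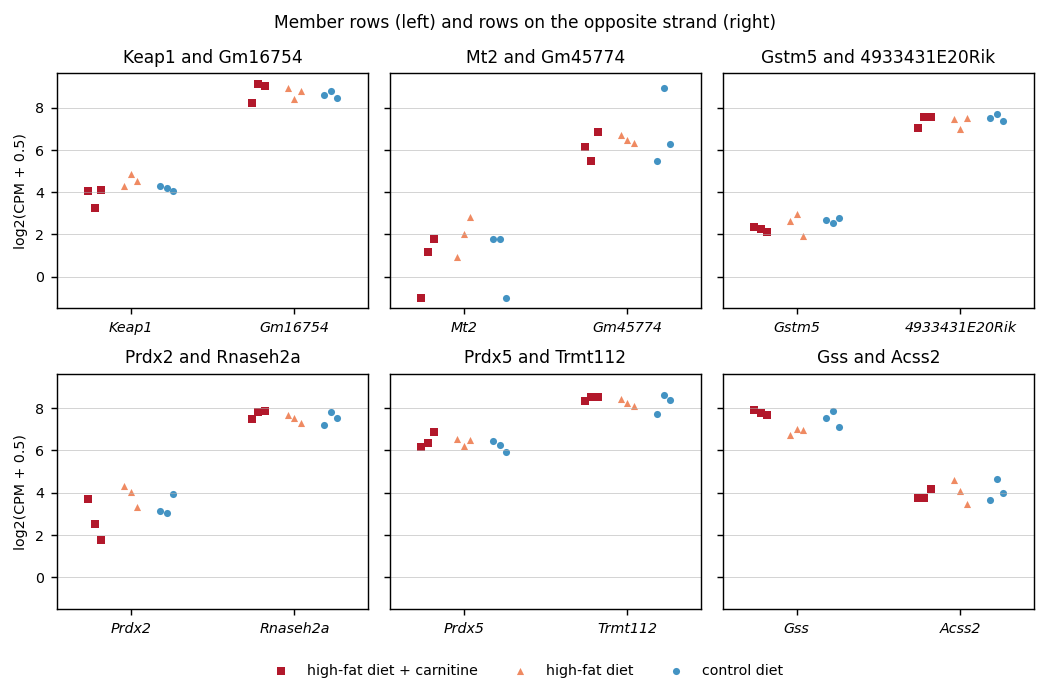
Genes of the set and a row opposite each, as log2(CPM + 0.5) on the y axis, with the gene at the left and the opposite row at the right of each panel (x axes) and 1 point a library by group. Opposite rows lie far above the gene for Keap1, Mt2, Gstm5, Prdx2 and Prdx5 and below it for Gss, and control 2 lies highest for Gm45774 at 494 CPM.

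Hmox1, heme oxygenase, and Nqo1, a quinone reductase, are widely used readouts of NRF2 and fell below the default filter on low counts. Hmox1 had 7, 6 and 4 counts with carnitine, 2, 1 and 10 counts on the high-fat diet alone and 1, 1 and 8 counts on the control diet. Nqo1 had 6, 0 and 0 counts with carnitine, 2, 8 and 2 counts on the high-fat diet alone and 0, 4 and 6 counts on the control diet. Groups overlapped for both. In a fit with no filter, which tested all 48 genes, the log2 ratio of carnitine to the high-fat diet was 0.64 (SE 1.24) for Hmox1 and −0.52 (SE 1.51) for Nqo1, and that of the high-fat diet to control was 0.32 (SE 1.28) for Hmox1 and −0.20 (SE 1.48) for Nqo1. Of the 19 genes below the default filter, 0 passed in that fit and 0 had an unadjusted p below 0.05 in any comparison.

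Some rows may hold reads of near-identical genes. In GENCODE M21, 61.7% of the 50-base stretches of the longest Gpx4 coding transcript also occur in transcripts of other genes, among them the pseudogene Gpx4-ps2 (150 counts here). The share was 62.3% for Gstp1 and 72.6% for Gstp2, mainly with each other, 23.1% for Gstm1 and 23.1% for Sod1. It was 10.9% for Prdx1 and 9.0% for Prdx2, and 0.0% for Cat, Nfe2l2, Gss, Srxn1, Gsr, Mgst3 and Prdx3. The sources used here do not say how such reads were assigned, so the values of Gpx4, Gstp1, Gstm1 and Sod1 are uncertain.

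Other genes of these pathways did not pass either. The 7 lists of 144 genes covered NADPH supply, NRF2 regulation, glutathione turnover, thioredoxin-related genes, selenoproteins, sources of superoxide and metal response. Of the 63 tested, 0 passed in each comparison (smallest adjusted p = 0.199 by edgeR). At an unadjusted p below 0.05, 3 were higher and 3 lower for carnitine against the high-fat diet, where 5.44% and 6.58% of all rows were. For the high-fat diet against control 1 was higher and 3 were lower (2.69% and 3.63% of all rows), and for carnitine against control 2 were higher and 2 lower (4.33% and 6.03% of all rows). The 15 tested genes of NRF2 regulation and targets had 12 log2 fold changes below 0 for carnitine against the high-fat diet (median −0.43) and 12 above 0 for the high-fat diet against control (median 0.20). Of these 15 genes 11 have no opposite gene, and 9 of the 11 were below 0 in the first comparison, where 69.9% of all rows in that class were (median −0.32). In the second, 2 of the 11 were below 0, where 40.4% of the class were. Among them were Nfe2l1, a relative of Nfe2l2, at −0.57 (SE 0.26) and Trim16 at −2.87 (SE 0.91, adjusted p = 0.226) in the first. The 16 thioredoxin-related genes had medians of −0.33 and 0.28 in these comparisons, beside −0.01 and 0.00 over all rows. Of these 16 genes 7 have no opposite gene, and 5 and 2 of the 7 were below 0, where 69.9% and 40.4% of the class were. Txnip, the thioredoxin inhibitor gene, which shares exon sequence with an opposite gene, was at 1.10 (SE 0.37, adjusted p = 0.424) for the high-fat diet against control. In contrast, the 7 sources of superoxide and peroxide had a median of 0.43 for carnitine against the high-fat diet, led by Nox1, an NADPH oxidase gene that shares exon sequence with an opposite gene, at 1.97 (SE 0.56, adjusted p = 0.199). The 6 genes of NADPH supply had medians of 0.11 and −0.35, the 9 of glutathione turnover −0.21 and 0.19, the 8 selenoprotein genes −0.07 and 0.12 and the 2 metal-responsive genes 0.22 and −0.24.

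Markers of cell types were read beside these values. All 15 skeletal muscle fibre markers had counts, and their summed level was 46035 to 53735 CPM with carnitine, 63962 to 78625 CPM on the high-fat diet alone and 61980 to 88376 CPM on the control diet. Summed fibre markers were thus lowest with carnitine. Against the high-fat diet 14 of 15 had a log2 fold change below 0 (median −0.55), where 50.6% of all rows tested did. Of these 15 genes 4 have no opposite gene, and 4 of the 4 were below 0, where 69.9% of that class were (median −0.32). Myh4, with no opposite gene, held 657078 of the 1656377 counts on fibre markers. Adipocyte markers summed to 85.1 to 202 CPM with carnitine, 136 to 158 CPM on the high-fat diet alone and 118 to 137 CPM on the control diet, and Adipoq, their defining gene, had 2 counts in all. Of their 3350 counts Fabp4 held 1549 and Slc2a4 1316, so the sum mostly follows these genes. Leukocyte markers summed to 114 to 118 CPM with carnitine, 88.9 to 118 CPM on the high-fat diet alone and 72.6 to 141 CPM on the control diet, with Ptprc at 2 counts, and 4 of their 10 genes had no row in the sheet used. Csf1r, which shares exon sequence with an opposite gene, held 2462 of their 2615 counts, so the sum is mostly that of its row. Endothelial markers summed to 40.3 to 169 CPM with carnitine, 54.2 to 96.3 CPM on the high-fat diet alone and 42.4 to 45.3 CPM on the control diet. Satellite cell markers (4 genes, 115 counts in all, Pax7 at 12) summed to 0.481 to 1.71 CPM with carnitine, 5.67 to 10.03 CPM on the high-fat diet alone and 2.45 to 5.26 CPM on the control diet, with Cdh15, the 1 tested, at −3.30 (SE 1.05, adjusted p = 0.226) for carnitine against the high-fat diet. These sums too were lowest with carnitine. They lay there below the low-count filter's level (3.85 CPM), so Cdh15 was tested only through the other groups, where it is high. Its difference supports nothing. Schwann cell markers (5 genes) summed to 0.962 to 7.20 CPM with carnitine, 2.23 to 21.1 CPM on the high-fat diet alone and 4.02 to 47.5 CPM on the control diet. The sums of fibroblast markers were 22.7 to 34.9 CPM with carnitine, 15.2 to 44.3 CPM on the high-fat diet alone and 19.1 to 37.2 CPM on the control diet. Erythroid markers summed to 3.85 to 15.4 CPM with carnitine, 3.55 to 6.27 CPM on the high-fat diet alone and 8.22 to 14.6 CPM on the control diet. For smooth muscle the sums were 45.4 to 80.4 CPM with carnitine, 38.3 to 59.6 CPM on the high-fat diet alone and 50.3 to 60.2 CPM on the control diet. The part of cell make-up in the values of the antioxidant genes was not tested.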

How the data were processed

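Muscle mRNA of mice was sequenced in 9 libraries, 3 in each of 3 groups, prepared with a stranded kit, per the labels' protocols. The authors deposited a sheet with counts and FPKM for each gene and library. Per the submitters' processing notes, the tools were HTSeq 0.13.5, HISAT2 2.2.0, Bowtie2 2.4.2, edgeR and Trim Galore 0.6.4. The builds listed there are GRCh38, GRCm39 and Rnor_6.0, of which GRCm39 is the mouse one. The sources used here do not give the counting's strand setting. The authors' FPKM were used only to compare levels between genes.

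The counts as deposited were fitted with edgeR 4.0.16 (R 4.3.3), a quasi-likelihood test with TMM factors, the default filter on low counts (7523 of 19335 rows kept) and 1 fit over all 9 libraries. P-values were adjusted by Benjamini-Hochberg over all rows tested, with 0.05 as the threshold. DESeq2 1.42.0 and limma-voom 3.58.1 were alternatives, and the script was tested on simulated data. Opposite genes and shared 50-base stretches came from the GENCODE M21 annotation, and coordinates are those of the sheet. The 48 genes are all accounted for. Values in every library were given for tested genes with an unadjusted p below 0.05 in any comparison, for the 8 with the highest mean FPKM and for a fixed list of core genes (Nfe2l2, Keap1, Cat, Sod1, Sod2, Gpx1, Gpx4, Hmox1, Nqo1, Gclc, Gclm, Gsr, Txnrd1, Srxn1, Mt1 and Mt2, where tested). Genes below the filter were given by their counts, and opposite rows were named from 50 counts up, except 1 that is not reported here. Mt1, Mt2, Hmox1 and Nqo1, below the filter, and 5 opposite rows were also given library by library, a choice made after their values were seen. The genes and lists were chosen with earlier results of these data known.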

Additional observations from a re-analysis of the deposited data

How the results depend on the processing

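The count of antioxidant genes that passed was 0 in each comparison under every alternative run and without each library in turn, except that DESeq2 called 1, Gss, between carnitine and the high-fat diet. The 63 log2 fold changes of the named genes, 21 genes in 3 comparisons, gave 1231 values under the alternatives. Of these 1169 stayed on their side of 0 and of the threshold, 61 changed sign, and 1 passed. The smallest adjusted p apart from DESeq2's was 0.0623. The cause of the changes was not tested.

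For carnitine against the high-fat diet, 4 of all rows passed, and the count was 42 with DESeq2, 10 on library totals alone, 26 with no filter, 10 with a filter of 1 CPM in 3 libraries, 0 fitted on the compared groups only, 0 with the share as covariate, 122 without the low-share libraries and 1 to 84 leaving out 1 library. For the high-fat diet against control, 4 of all rows passed, and the count was 35 with DESeq2, 0 on library totals alone, 2 scaled on rows with no opposite gene, 68 with no filter, 40 with a filter of 1 CPM in 3 libraries, 8 with limma-voom, 40 fitted on the compared groups only, 9 with the share as covariate, 10 with the replicate block, 60 without the low-share libraries and 0 to 61 leaving out 1 library. For carnitine against control, 32 of all rows passed, and the count was 69 with DESeq2, 18 on library totals alone, 14 scaled on rows with no opposite gene, 60 with no filter, 21 with limma-voom, 10 fitted on the compared groups only, 17 with the share as covariate, 213 without the low-share libraries and 5 to 86 leaving out 1 library. The highest of these counts leaving out 1 library was without carnitine 1 in each comparison. Correlations of the deviations from the group means ran from −0.16 to 0.14 between libraries of the same replicate number. Between libraries of different numbers in different groups they ran from −0.15 to 0.19. With 3 libraries a group these values cannot show whether the numbers pair the libraries. With the replicate number as a block, 0 antioxidant genes passed in each comparison, and 3, 10 and 31 of all rows did for carnitine against the high-fat diet, the high-fat diet against control and carnitine against control.

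The median log2 fold change for carnitine against the high-fat diet, −0.64, was −0.85 on library totals alone, −0.23 scaled on rows with no opposite gene, −0.49 with no filter, −0.38 without the low-share libraries and −0.73 to −0.47 leaving out 1 library. The median log2 fold change for the high-fat diet against control, 0.34, was 0.51 on library totals alone. The median log2 fold change for carnitine against control, −0.25, was −0.07 scaled on rows with no opposite gene, −0.09 without the low-share libraries and −0.52 to −0.07 leaving out 1 library. The 3 low-share libraries (carnitine 2 and 3, control 2) were left out together as an alternative chosen after seeing the data. Carnitine 1 is then alone in its group. The genes behind these medians change with the filter and the libraries. They were 48 with no filter, 36 without the low-share libraries and 30 to 33 leaving out 1 library, beside 29 in the main fit.

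Log2 fold changes whose sign changed were the following, with the reported value in brackets. For carnitine against the high-fat diet, Srxn1 (−0.37) was 0.01 with the share as covariate, 0.21 without the low-share libraries and −0.87 to 0.01 leaving out 1 library. Gstt2 (0.02) was −0.22 on library totals alone, −0.02 fitted on the compared groups only, −0.14 without the low-share libraries and −0.31 to 1.04 leaving out 1 library. Prdx5 (0.08) was −0.13 on library totals alone, −0.03 with the share as covariate, −0.33 without the low-share libraries and −0.19 to 0.23 leaving out 1 library. Gpx3 (0.17) was −0.06 on library totals alone, −0.28 without the low-share libraries and −0.13 to 0.64 leaving out 1 library. Gstm1 (−0.66) was −1.02 to 0.14 leaving out 1 library. Sod1 (−0.32) was 0.01 scaled on rows with no opposite gene and 0.03 without the low-share libraries. Gclm (0.16) was −0.01 on library totals alone and −0.30 to 1.16 leaving out 1 library. For the high-fat diet against control, Gpx4 (−0.03) was 0.14 on library totals alone and −0.24 to 0.26 leaving out 1 library. Mgst3 (0.11) was −0.06 scaled on rows with no opposite gene and −0.47 to 0.42 leaving out 1 library. Sod2 (0.17) was 0.00 to 0.31 leaving out 1 library. Gpx3 (−0.23) was −0.69 to 0.07 leaving out 1 library. Gstm1 (0.53) was −0.28 to 0.88 leaving out 1 library. Sod1 (0.06) was −0.09 scaled on rows with no opposite gene, −0.01 with the share as covariate and −0.07 to 0.24 leaving out 1 library. Gclm (0.49) was −0.50 to 1.00 leaving out 1 library. For carnitine against control, Cat (0.01) was −0.01 on library totals alone, −0.01 with no filter, −0.01 with a filter of 1 CPM in 3 libraries, −0.06 without the low-share libraries and −0.26 to 0.39 leaving out 1 library. Prdx2 (−0.58) was 0.03 without the low-share libraries. Prdx5 (0.29) was −0.11 without the low-share libraries. Gpx3 (−0.06) was 0.23 scaled on rows with no opposite gene and −0.17 to 0.11 leaving out 1 library. Gstm1 (−0.14) was 0.11 scaled on rows with no opposite gene and −0.41 to 0.09 leaving out 1 library. Sod1 (−0.25) was 0.18 without the low-share libraries. Gclc (−0.15) was 0.29 with limma-voom, 1.35 without the low-share libraries and −1.50 to 0.44 leaving out 1 library. Txnrd1 (−0.27) was 0.01 scaled on rows with no opposite gene.

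Depth limits these results: the default filter removed 19 genes with 1 to 84 counts in all, of which 0 passed in the fit with no filter, and 21 of the 29 log2 fold changes between carnitine and the high-fat diet lay within 2 SE of 0. A gene that did not pass may still differ within these errors. The strand setting and the reads shared between opposite rows limit which gene a value belongs to.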
